A study of Glycine max with 12 samples.

Results

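Messenger RNA of young soybean (Glycine max) seedlings was set against that of the mature stem, gene model by gene model. Both libraries came from cultivar Williams 82 plants raised in a greenhouse. The seedling library held whole seedlings 6 days after imbibition, 7 to 10 cm long, and so mixed shoot, root and any cotyledon tissue still attached. The stem library held internodes alone, taken from a mature plant aged 3 to 4 months. Each group was 1 library, so there was no replicate check, and no spread between plants could be measured and no test was made. The comparison took in all 66210 gene models, the same set that the other 8 libraries with counts used, and the series has 12 libraries in all. Stem was chosen because it correlated best with seedling across gene models (Pearson's r = 0.845 over 42251 gene models on the log2(CPM + 1) scale, a description across genes that share both libraries).

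A seedling of this age lives in part on reserves laid down in the seed. Oil is broken down to acetyl units, which the glyoxylate cycle turns into precursors of sugar, while leaves begin to photosynthesise. A mature stem carries water and sugar between organs, and its vascular tissue builds lignified secondary walls from phenylpropanoid precursors. Soybean is also known for isoflavones, which branch from the same phenylpropanoid pathway, and for vegetative storage proteins, which hold nitrogen in leaves and stems.

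The seedling library held 18.6 M (mega) counts and the stem library 10.3 M, the lowest total of the 10. Values are given as CPM, counts per mega-count of the library's TMM-scaled total. A count of 3, used as the floor of detection, was worth 0.155 CPM in seedling and 0.283 CPM in stem. Ranges after a fold are exact 95% intervals from the pair of counts, and like the floors they cover counting error only. Since both are bulk samples of mixed cells, fewer cells of a type and less RNA per cell cannot be told apart. The gene names used here are published locus assignments, kept where RefSeq lists a gene of that name on the same chromosome at a similar relative position. They do not come from the deposited files and were not checked against sequence. The check on position is coarse, and it cannot separate a gene from a neighbouring copy.

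The labelled tissues were checked first against seed storage proteins, which mark seed and cotyledon tissue. Of 10 listed genes for glycinins and beta-conglycinins, 9 had at least 1 count in seedling and all 10 had 0 counts in stem. Their summed level was 33.6 CPM in seedling and 0 CPM in stem. The levels of RCA11, a gene of green tissue, and of the nodule leghemoglobins are given below with their lists. Markers of vascular or dividing cells were not looked up, since the identifiers had no match in the RefSeq gene table.

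Of the 66210 gene models, 34441 had a mean of at least 1 CPM over both libraries and are called measured here. A gene was called when its ratio was 4-fold or more in either direction (any count below 3 being raised to 3) and it reached 10 CPM in the higher library. Under this rule 1608 genes (4.67% of those measured) were higher in seedling and 1318 (3.83%) were lower, which together made 8.5%. Most genes lay closer: 63.8% were within 2-fold and 84.5% within 4-fold, and the median log2 ratio of seedling over stem was 0.04. The genes called higher took 14.5% of the counts in seedling and 1.64% in stem. Those called lower took 1.52% of the counts in seedling and 11.4% in stem.

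**Figure D1:**
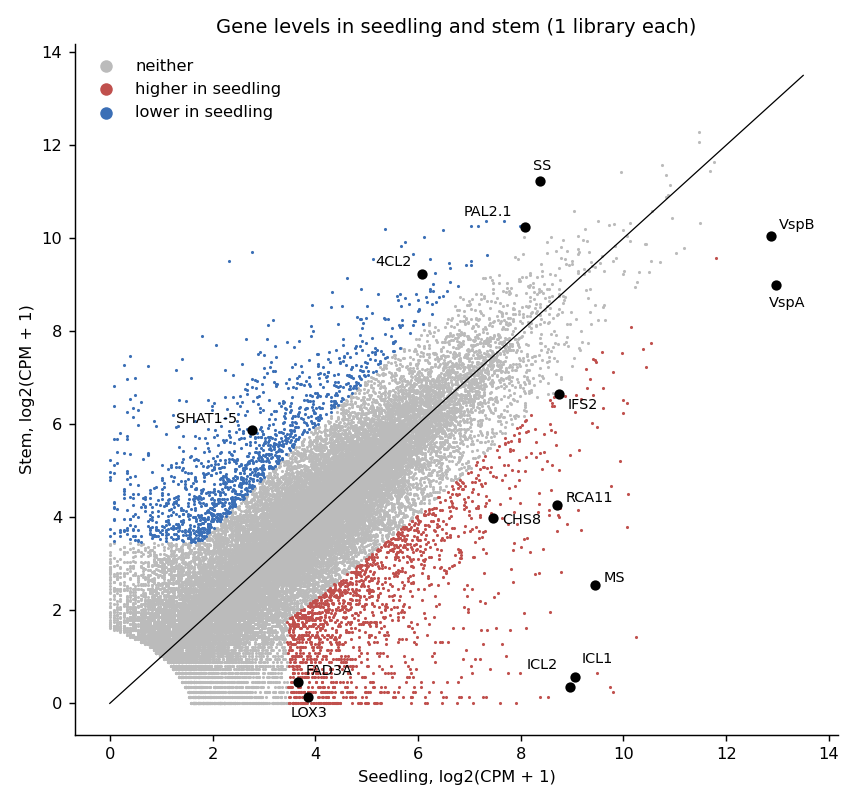
Each point is 1 of 34441 measured genes, by its level in seedling (x axis) and in stem (y axis), both as log2(CPM + 1). Red points were called higher in seedling (1608 genes), blue points lower (1318 genes) and grey points neither, black points mark named loci, and the line marks equal levels. The glyoxylate cycle loci ICL1, ICL2 and MS lie far below the line, and 4CL2, PAL2.1 and SS lie above it.

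The split between directions moved with the level of the genes. Among 6000 genes with a mean of 1 to 3 CPM, 17.9% were at least 4-fold higher in seedling and 8.70% at least 4-fold lower, with no minimum set for the higher library. Among 6026 genes at 30 to 100 CPM the shares were 5.64% higher and 5.68% lower. The widest gap in a bin of over 1000 genes thus stood at the lowest levels, where the stem library had the fewest counts per gene, and the part of depth in it was not tested. Among 229 genes at 300 to 1000 CPM, where depth was ample, 14.8% were higher and 11.8% lower. In the same way, 626 genes reached 1 CPM in seedling with 0 counts in stem, against 94 genes that reached 1 CPM in stem with 0 counts in seedling. At 10 CPM these were 80 genes in seedling and 6 in stem, and a count of 0 allows up to 0.155 CPM in seedling and 0.283 CPM in stem.

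**Figure D2:**
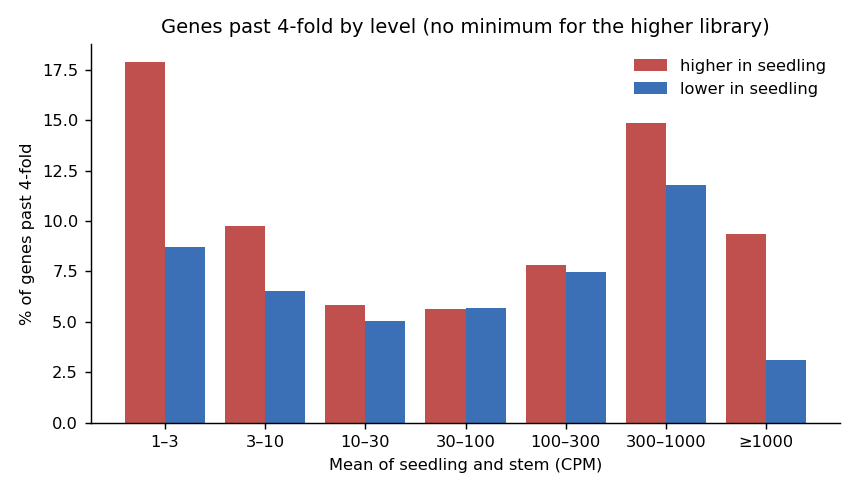
Bars give the percentage of genes at least 4-fold higher (red) or at least 4-fold lower (blue) in seedling than in stem, within bins of the mean CPM of both libraries. The bars for higher and lower are furthest apart at 1 to 3 CPM (17.9% higher, 8.70% lower) and nearly equal at 30 to 100 CPM (5.64% higher, 5.68% lower).

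Of 113 named loci in 19 lists, 71 were measured, and of these 16 were higher in seedling, 3 were lower and 52 passed in neither direction, against 4.67% higher and 3.83% lower among all measured genes. The lists hold many seed and seedling genes, so these counts describe the lists and not the genome.

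The loci of the glyoxylate cycle, which lets germinating oil seeds make sugar from fat, differed more than any other list in median log2 ratio (10.14, against 0.04 for all measured genes). All 3 were called higher in seedling, against 4.67% of all measured genes. ICL1 (Glyma06g45950, chromosome 6), an isocitrate lyase, had 530 CPM in seedling and 0.471 CPM in stem, from 10285 and 5 counts, a ratio of 1125 (482 to 3466). ICL2 (Glyma12g10780, chromosome 12), a second isocitrate lyase, had 498 CPM in seedling and 0.283 CPM in stem, from 9655 and 3 counts, a ratio of 1760 (602 to 8537). Isocitrate lyase splits isocitrate to glyoxylate and succinate, the step that bypasses the loss of carbon dioxide. MS (Glyma17g13730, chromosome 17), malate synthase, the next enzyme of the cycle, had 693 CPM in seedling and 4.81 CPM in stem, 144-fold higher (110 to 194). For both isocitrate lyases seedling was the highest of the 10 libraries. Dry seed had only 1.89 CPM of ICL1 and 2.52 CPM of ICL2, but 2462 CPM of MS, which was above the seedling level. In leaf ICL1 had 0 CPM, and ICL2 and MS had 0.0448 CPM each.

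The seed proteins themselves were low in seedling and mostly at 0 in stem. Beta-conglycinin alpha-prime (Glyma10g39150) had 10.2 CPM in seedling and 0 counts in stem, at least 36.1-fold higher against a floor of 3 counts. It was the only one of the 10 storage protein genes, 4 of them measured, that was called, against 4.67% higher among all measured genes. Gy1 also passed, making 2 of 10, when the scaling factors were computed without dry seed. The glycinin genes Gy1 and Gy4 had 9.18 and 8.35 CPM in seedling and 0 counts in stem, just under the minimum of 10 CPM. Gy2 had 3.56 CPM in seedling and 0 counts in stem. Early-maturation seed had 14616 CPM of alpha-prime and 8383 CPM of Gy1, far above the seedling levels. Dry seed had 4226 CPM of alpha-prime and 3932.5 CPM of Gy1. Younger seed was lower than these stages. Globular-stage seed had 8.73 CPM of alpha-prime and 4.76 CPM of Gy1, and heart-stage seed had 1.42 and 0.0837 CPM, all below seedling. Cotyledon-stage seed had 19.1 CPM of alpha-prime, above seedling, and 0.0706 CPM of Gy1, below it. Gy1 and Gy2 are near-identical, as are copies of the conglycinins, so the division of reads among them is uncertain.

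Other seed genes followed at low counts. The seed lipoxygenase LOX3 (Glyma15g03030), which oxidises polyunsaturated fatty acids, had 13.6 CPM in seedling and 0.0943 CPM in stem. The stem value was 1 count, and the ratio was 144 (25.6 to 5703). LOX1 and LOX2 had 1.03 and 1.13 CPM in seedling, against 0 and 0.0943 CPM in stem, and neither was measured. Of 7 other seed protein genes, 4 were measured and none was called in either direction, near the background of 8.5%. BG7S had 3.09 CPM in seedling and 0.0943 CPM in stem (1 count), and KTI1 had 3.81 CPM in seedling and 0 counts in stem. SBP had 1.96 CPM in seedling and 0.566 CPM in stem. SBP2 went the other way, with 1.70 CPM in seedling and 3.02 CPM in stem, a ratio of 0.564 (0.336 to 0.947). Of 6 seed regulators, 1 was measured, WRI1B, with 1.80 CPM in seedling and 0.943 CPM in stem.

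The vegetative storage protein genes carried the most counts among the named loci in seedling, and both were called higher there, against 4.67% of all measured genes. VspA (Glyma07g01730, chromosome 7) had 8044 CPM in seedling and 509 CPM in stem, 15.8-fold higher (15.4 to 16.2), and took more counts than any other gene model in the seedling library. VspB (Glyma08g21410, chromosome 8) had 7523 CPM in seedling and 1058 CPM in stem, 7.11-fold higher (6.98 to 7.25). Both were thus present in stem as well. In the other vegetative libraries the pair differed. VspA had 10185 CPM in leaf and 41.6 CPM in root, whereas VspB had 628 CPM in leaf and 423 CPM in root. The coding sequences of this pair are alike, and how reads that match both were assigned is not given in the sources used here.

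Of 4 genes of photosynthesis and chlorophyll turnover 3 were measured, of which 1 was higher in seedling and none lower (4.67% and 3.83% of all measured genes). RCA11 (Glyma11g34230, chromosome 11), Rubisco activase, which keeps the carbon-fixing enzyme active, had 415 CPM in seedling and 18.1 CPM in stem, 22.9-fold higher (19.9 to 26.6). Leaf had 2262 CPM. SGR1 and SGR2, stay-green genes needed for chlorophyll breakdown, were closer: SGR1 had 19.4 CPM in seedling and 9.99 CPM in stem, and SGR2 had 21.5 CPM in seedling and 10.2 CPM in stem. RBCS1, a Rubisco small subunit gene, had 0 counts in all 10 libraries, leaf included, so its counts say nothing of its expression.

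Among 5 photoreceptor genes, 1 was called higher and none lower (4.67% and 3.83% of all measured genes). PHYA3 (E3, Glyma19g41210), a phytochrome A gene that delays flowering in long days, had 14.0 CPM in seedling and 2.64 CPM in stem, 5.29-fold higher (3.58 to 8.12). The other phytochrome A genes did not reach 4-fold. PHYA1 had 97.8 CPM in seedling and 39.6 CPM in stem, a ratio of 2.47 (2.22 to 2.75), and PHYA2 (E4) had 142 CPM in seedling and 49.3 CPM in stem, a ratio of 2.87 (2.61 to 3.16). PHYB, the phytochrome that reads red light in green tissue, had 46.2 CPM in seedling and 94.6 CPM in stem, a ratio of 0.488 (0.446 to 0.535). The blue-light receptor gene CRY1a had 69.8 CPM in seedling and 61.6 CPM in stem.

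None of 9 circadian clock genes was called, which at 8.5% called among all measured genes is near the background and no result about these genes. GIa (E2), a GIGANTEA gene, had 226 CPM in seedling and 245 CPM in stem. TOC1, an evening clock gene, had 15.9 CPM in seedling and 14.7 CPM in stem. The 4 LHY genes, which peak in the morning in plants, had ratios of 0.631 (LHY1a), 0.765 (LHY1b), 0.348 (LHY2a) and 0.593 (LHY2b). The hour of harvest is not given in the sources used here.

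**Figure D3:**
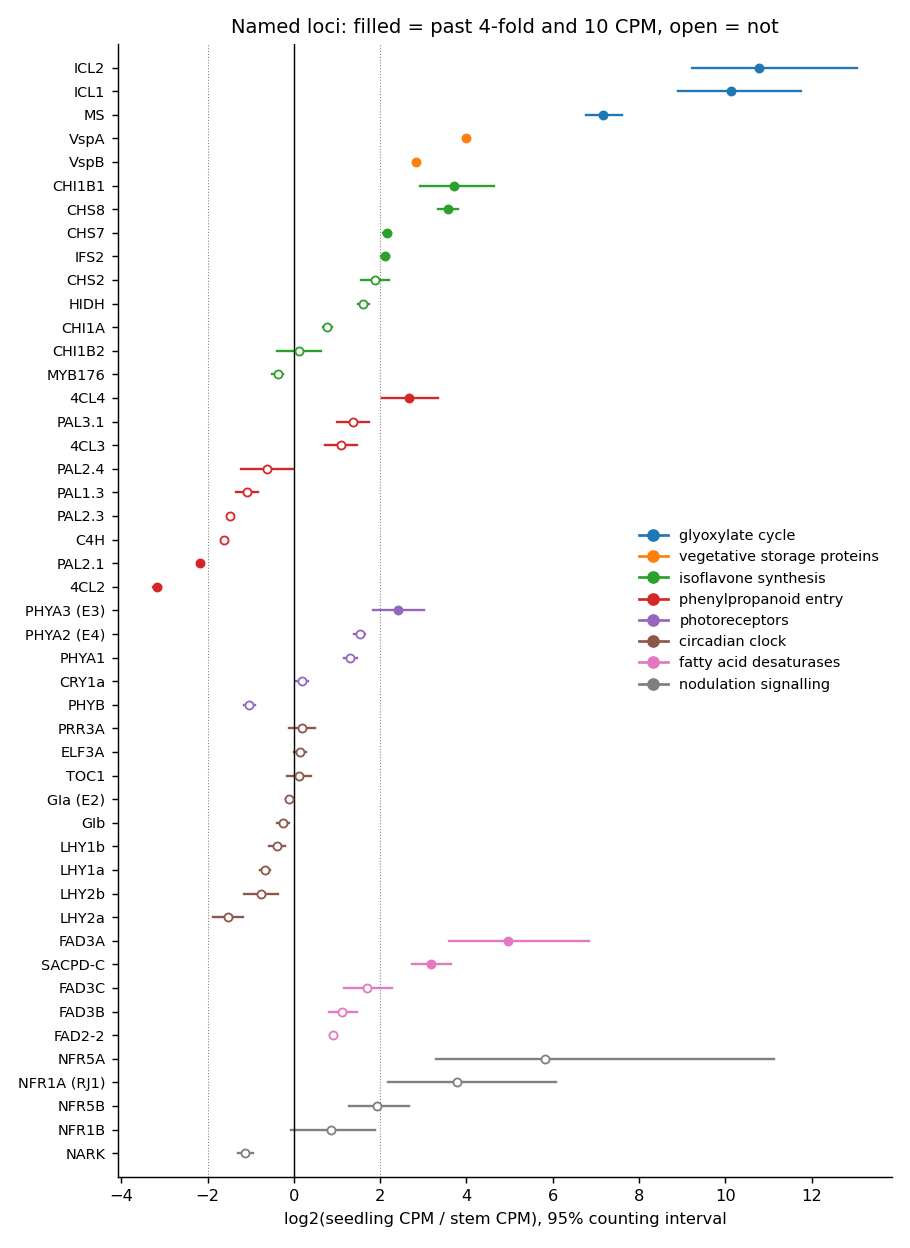
Points give log2 of seedling CPM over stem CPM for 47 measured loci in 8 lists, with lines for the 95% interval from counting error. Filled points passed the 4-fold and 10 CPM rule, open points did not, and dotted lines mark 4-fold. The 3 glyoxylate cycle loci lie furthest right, 4CL2 and PAL2.1 are the filled points left of 0, and the clock loci lie between the dotted lines.

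Entry genes of the phenylpropanoid pathway differed in direction. Of 9 measured, 1 was higher in seedling, 2 were lower and 6 passed in neither direction, with a median log2 ratio of -1.09. Among all measured genes 4.67% were higher and 3.83% lower, with a median of 0.04. PAL2.1 (Glyma10g06600, chromosome 10), a phenylalanine ammonia-lyase gene for the first step, had 270 CPM in seedling and 1215 CPM in stem, 4.50-fold lower in seedling (4.36 to 4.65). 4CL2 (Glyma13g44950, chromosome 13), a 4-coumarate:CoA ligase gene, had 67.0 CPM in seedling and 603 CPM in stem, 9.01-fold lower in seedling (8.49 to 9.57). Stem was the highest of the 10 libraries for both. C4H (Glyma02g40290), the hydroxylase between these steps, had 246 CPM in seedling and 752 CPM in stem, a ratio of 0.327 (0.315 to 0.339) that did not reach 4-fold. PAL2.3 had 189 CPM in seedling and 525 CPM in stem, a ratio of 0.360 (0.345 to 0.376). PAL1.3 and PAL2.4 were also below 1, with ratios of 0.470 (0.394 to 0.561) and 0.646 (0.424 to 0.989). The ligase gene 4CL4 went the other way, with 13.7 CPM in seedling and 2.17 CPM in stem, 6.33-fold higher (4.13 to 10.2). So did PAL3.1 and 4CL3, short of 4-fold, with ratios of 2.57 (2.01 to 3.33) and 2.13 (1.65 to 2.77). Stem was also the highest library for C4H, PAL1.3 and PAL2.3.

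The isoflavone synthesis genes draw on the same precursors, and their list includes the chalcone synthase and isomerase genes upstream of isoflavone synthase. Of its 9 measured genes 4 were higher in seedling and none lower, with a median log2 ratio of 1.88. Among all measured genes 4.67% were higher and 3.83% lower, and the median was 0.04. CHS7 (Glyma01g43880, chromosome 1), a chalcone synthase gene, had 389 CPM in seedling and 87.3 CPM in stem, 4.45-fold higher (4.16 to 4.77). CHS8 (Glyma11g01350, chromosome 11), another chalcone synthase gene, had 175 CPM in seedling and 14.8 CPM in stem, 11.8-fold higher (10.1 to 14.0). Seedling was the highest of the 10 libraries for both, and stem was the lowest for CHS8. IFS2 (Glyma13g24200, chromosome 13), isoflavone synthase, had 429 CPM in seedling and 98.8 CPM in stem, 4.34-fold higher (4.07 to 4.63). CHI1B1, a chalcone isomerase gene, had 16.1 CPM in seedling and 1.23 CPM in stem, 13.1-fold higher (7.56 to 24.9). The more abundant isomerase gene CHI1A had 154 CPM in seedling and 90.6 CPM in stem, a ratio of 1.71 (1.59 to 1.84). CHI1B2 had 5.10 CPM in seedling and 4.71 CPM in stem, a ratio of 1.08 (0.763 to 1.55). Neither CHI1A nor CHI1B2 was called. Seedling was not the highest library for IFS2 or CHI1B1: dry seed had 718 CPM of IFS2, and root had 33.2 CPM of CHI1B1. Below the threshold, HIDH, the dehydratase that completes the isoflavone, had 172 CPM in seedling and 56.5 CPM in stem, a ratio of 3.05 (2.79 to 3.33). MYB176, a regulator of CHS8, had 64.6 CPM in seedling and 83.9 CPM in stem. IFS1 had 0 counts in all 10 libraries, so the division of reads between IFS1 and IFS2, which are alike, is uncertain, as it is among the chalcone synthase copies.

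The list for the anthocyanin and flavonol branch had 4 measured genes of 7, without flavonol synthase, whose locus was dropped by the position check. None was called, near the background of 8.5%. SF3'H1, the most abundant of the measured genes, had 66.3 CPM in seedling and 49.5 CPM in stem, a ratio of 1.34 (1.21 to 1.49). F3H, flavanone 3-hydroxylase, had 24.2 CPM in seedling and 6.50 CPM in stem, a ratio of 3.72 (2.88 to 4.86). ANS3 had 3.09 CPM in seedling and 0 counts in stem. ANS2, an anthocyanidin synthase gene, had 5.41 CPM in seedling and 0.377 CPM in stem, a ratio of 14.4 (5.44 to 53.7), under the minimum of 10 CPM. F3H and ANS2 were far higher in early-maturation seed, with 1012 CPM of F3H and 493 CPM of ANS2.

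A wall regulator and a sugar enzyme stood on the other side, with both SHAT1-5 and SS lower in seedling. SHAT1-5 (Glyma16g02200, chromosome 16), a NAC transcription factor known for secondary wall thickening in the soybean pod, had 5.83 CPM in seedling and 58.0 CPM in stem, 9.95-fold lower in seedling (8.13 to 12.3). Root had 31.4 CPM, and the 5 seed libraries had at most 0.170 CPM. SS (Glyma13g17420, chromosome 13), sucrose synthase, which splits the transported sugar, had 333 CPM in seedling and 2395 CPM in stem, 7.20-fold lower in seedling (7.01 to 7.40). SS was named after its values were seen and stands outside the lists. Its levels in root (2435 CPM) and early-maturation seed (2353 CPM) stood close to that in stem, and leaf had 46.9 CPM.

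Of 5 measured fatty acid desaturase genes, 2 were higher in seedling and none lower (4.67% and 3.83% of all measured genes). FAD3A (Glyma14g37350), a microsomal desaturase that makes linolenic acid, had 11.8 CPM in seedling and 0.377 CPM in stem, a ratio of 31.2 (12 to 115) that rests on 4 stem counts. The other FAD3 genes of the list were not called. FAD3B had 21.0 CPM in seedling and 9.61 CPM in stem, a ratio of 2.18 (1.75 to 2.74). FAD3C had 10.1 CPM in seedling and 3.11 CPM in stem, a ratio of 3.23 (2.23 to 4.83). SACPD-C (Glyma14g27990), which makes oleic from stearic acid on its carrier protein, had 37.4 CPM in seedling and 4.15 CPM in stem, 9.02-fold higher (6.65 to 12.5). FAD2-2, an oleate desaturase gene active in many organs, had 403 CPM in seedling and 214 CPM in stem. Of the seed forms, FAD2-1A had 0 counts in both libraries, and FAD2-1B had 0.722 CPM in seedling and 0.377 CPM in stem (14 and 4 counts).

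**Figure D4:**
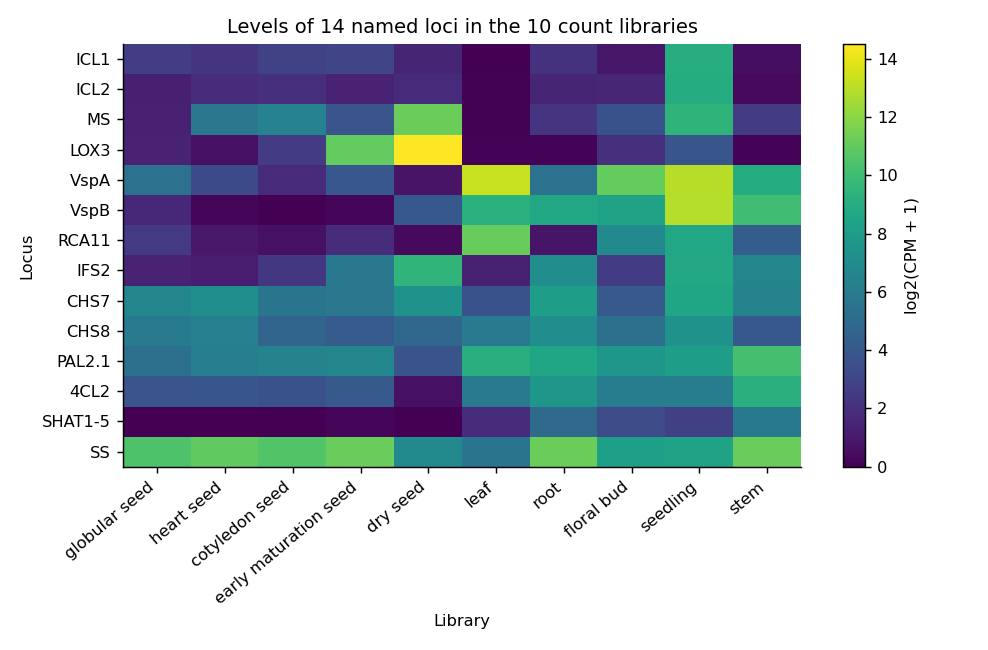
Colour gives log2(CPM + 1) of 14 named loci (rows) in the 10 count libraries (columns), with 1 library each and seedling left of stem. ICL1 and ICL2 are bright in seedling alone, MS and LOX3 are brightest in dry seed, and PAL2.1, 4CL2 and SHAT1-5 are brightest in stem.

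None of 5 measured nodulation signalling genes was called, again near the background of 8.5%. NARK, the receptor kinase through which the shoot limits nodule number, had 26.8 CPM in seedling and 58.2 CPM in stem, a ratio of 0.459 (0.408 to 0.517). The Nod factor receptor gene NFR5A had 5.31 CPM in seedling and 0.0943 CPM in stem (1 count), a ratio of 56.3 (9.89 to 2246), under the minimum of 10 CPM. NFR1A (RJ1), its partner receptor, had 3.87 CPM in seedling and 0.283 CPM in stem (3 counts), a ratio of 13.7 (4.50 to 67.8). The second copies were closer. NFR5B had 7.58 CPM in seedling and 1.98 CPM in stem, a ratio of 3.83 (2.41 to 6.37). NFR1B had 2.22 CPM in seedling and 1.23 CPM in stem, a ratio of 1.81 (0.955 to 3.67). The 4 leghemoglobin genes had 0 counts in seedling and 1 count in stem between them.

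Of 12 flowering and shoot growth genes, SHAT1-5 was the only one measured. The florigen gene FT2A had 0.258 CPM in seedling and 0.283 CPM in stem. E1, a legume repressor of flowering, had 0.825 CPM in seedling and 0 counts in stem, and AP1 had 0.0515 CPM in seedling and 0 counts in stem.

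Of the 3 nematode resistance loci, none was called, near the background of 8.5%. SHMT, serine hydroxymethyltransferase, had 362 CPM in seedling and 826 CPM in stem, a ratio of 0.438 (0.424 to 0.452). SNAP18, a vesicle trafficking protein, had 105 CPM in seedling and 79.2 CPM in stem, and AAT, an amino acid transporter, had 42.6 CPM in seedling and 42.3 CPM in stem. The reference genes often used in soybean were close as well: ELF1B had 75.9 CPM in seedling and 92.2 CPM in stem, and CYP2 had 597 CPM in seedling and 648 CPM in stem.

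With counts below 3 raised to 3, the largest folds among called genes fell on identifiers with no name here. The order among genes with so few counts in the lower library depends on that floor. Glyma07g13780 had 884 CPM in seedling and 0.189 CPM in stem (2 counts), and Glyma03g04960 had 854 CPM in seedling and 0.283 CPM in stem (3 counts). Leaf had 394 CPM of the first, and dry seed had 180 CPM of the second. On the other side, Glyma08g02040 had 0.206 CPM in seedling and 154 CPM in stem, and Glyma12g07450 had 0.0515 CPM in seedling (1 count) and 112 CPM in stem. Glyma08g02040 reached 286 CPM in globular-stage seed, while Glyma12g07450 was above 1 CPM elsewhere only in root, at 13.0 CPM.

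The called genes were then followed into the 8 other count libraries, whose values the calls used only through the scaling. Of the 1608 genes higher in seedling, 37.4% had their highest other level in leaf, 27.1% in root and 14.4% in dry seed. Of the 1318 genes lower in seedling, 61.4% had it in root, 8.27% in floral bud and 8.19% in globular-stage seed. A further 5.39% had it in early-maturation seed, 5.31% in leaf and 5.16% in dry seed. Over all measured genes the shares were 26.5% in dry seed, 21.0% in root and 16.3% in leaf. They were 10.9% in globular-stage seed, 8.41% in early-maturation seed and 6.09% in floral bud. Root also reached 1 CPM for 94.1% of the lower genes, and dry seed for 28.1%, against 90.9% and 69.4% of all measured genes.

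**Figure D5:**
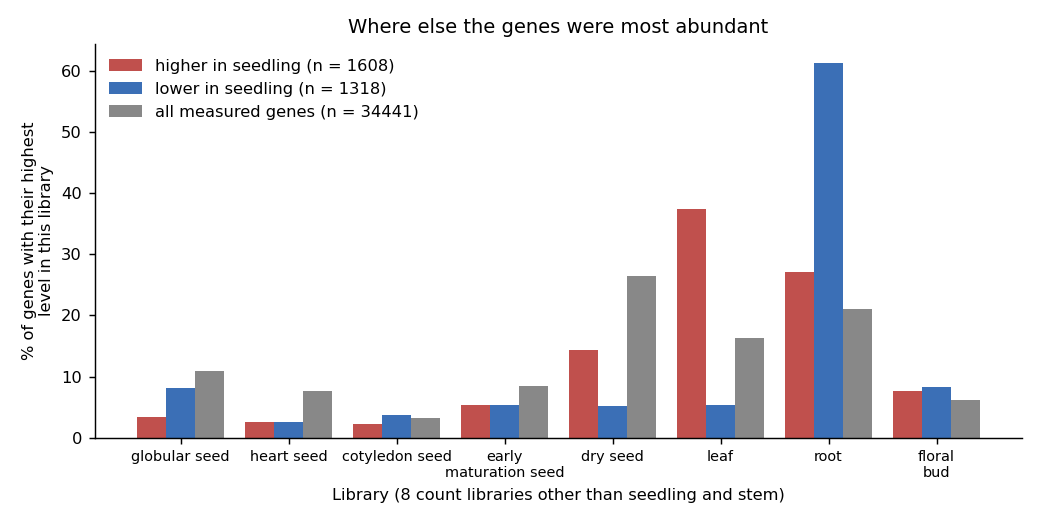
Bars give the percentage of genes whose highest level among the 8 other count libraries was in the library named on the x axis, for genes higher in seedling (red), lower in seedling (blue) and all measured genes (grey). Leaf leads for the higher genes (37.4%) and root for the lower genes (61.4%).

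Stem itself was closest to root by correlation (r = 0.849), slightly above its value with seedling (0.845). Its r was 0.777 with floral bud and 0.699 with leaf. Seedling had an r of 0.800 with root, 0.795 with floral bud and 0.784 with leaf. Under the same rule, 7.34% of measured genes were called between stem and root, and 11.2% between stem and floral bud. Between stem and leaf, 3647 genes were higher in stem and 3196 lower, of 34164 measured. The shares for seedling were 9.12% against floral bud, 10.0% against root and 12.3% against leaf. These comparisons share the seedling or the stem library and are given side by side only.

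Of the genes higher in seedling, 570 of 1608 had a seedling level above all 9 other libraries, against 2609 of 34441 measured genes. Of the genes lower in seedling, 989 of 1318 had a stem level above all 9 others, against 4439 of 34441 measured genes. The call itself fixes the order of seedling and stem, so part of each count follows from the rule. At least 10 CPM and 4 times each of the 9 others was reached by 191 genes in seedling and 218 in stem. By the rule nearly any such gene is a called one. By chromosome, 3.84% to 5.73% of measured genes were called higher and 2.62% to 5.53% lower, with chromosome 12 highest in both directions.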

How the data were processed

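Polyadenylated RNA of whole seedlings and of stem internodes was sequenced as single-end 76-bp reads, per the labels' protocols. The authors deposited, for each library, the raw count of mapped reads per gene model. The aligner was Bowtie, per the submitters' processing notes. No source used here gives its version, the genome build, the annotation or how reads with several matches were treated. A pair of libraries of the series, deposited as RPKM, was not used.

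Counts of the 10 count libraries were scaled with TMM factors (edgeR 4.0.16, R 4.3.3). A gene was called at 4-fold and at least 10 CPM in the higher library, with a floor of 3 counts, and counted as measured at a mean of 1 CPM. Intervals are exact (Clopper-Pearson) 95% intervals of the conditional binomial. Correlations used log2(CPM + 1). The calls and intervals were tried on simulated counts with counting error only and changes planted only in well-counted genes. That trial says nothing of variation between plants or of changes near the floor. Python 3.11.15, numpy 2.4.6, pandas 2.3.3, scipy 1.17.1 and matplotlib 3.10.9 were used.

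None of the identifiers matched the RefSeq table (Glycine_max_v4.0, 59048 genes), which has no descriptions, so lists by gene description could not be applied. Named loci were 115 published assignments in 19 lists. A locus was kept when RefSeq had a gene of its name on the same chromosome within 10 percentile points of gene order, which dropped 2. The candidates were screened against RefSeq while the lists were written, so the number kept is no measure of their accuracy. Lists and members were chosen with earlier results of these data known, and the lists were revised after the files could be read. All members of lists of up to 12 loci could be named, plus the 2 identifiers with the largest ratio in each direction. SS was added after its values were seen. Alternatives covered the scaling, minimum, fold, floor and interval bound.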

Additional observations from a re-analysis of the deposited data

How the results depend on the processing

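The counts of 1608 genes higher and 1318 lower in seedling than stem depended most on the thresholds. With a minimum of 1 CPM they were 3664 higher and 2488 lower, with no minimum 3664 and 2727, and with a minimum of 50 CPM 516 and 499. At 2-fold they were 3574 higher and 3585 lower, and at 8-fold 848 and 541. The excess of higher genes thus ended at 2-fold with the 10 CPM minimum, whereas without a minimum 6692 measured genes were beyond 2-fold higher and 5781 lower. Under the other scalings they stayed within 1.5 times: 1531 to 1856 higher and 1269 to 1462 lower (plain CPM, DESeq2 1.42.0 size factors, TMM of this pair alone, TMM without dry seed). Scaling the seedling counts down to the stem total and rounding gave 1608 and 1318, but this keeps every ratio apart from rounding and so is no check of depth. Requiring the nearer interval bound to pass 4-fold left 1229 higher and 1019 lower. A floor of 1 or 10 counts changed no call, since at 10 CPM the ratio to either floor is past 4-fold. No call of a named locus changed under plain CPM, DESeq2 size factors, TMM of this pair alone or a floor of 10 counts. With TMM without dry seed, added for the loci after seeing the data, only the call of Gy1 changed, to higher, which made 2 seed storage genes called in place of 1. The median log2 ratio of the nematode resistance loci was -0.0573 with DESeq2 size factors, against 0.00883 under the TMM factors of the 10 libraries. With a floor of 10 counts, the median log2 ratio was 3.22 for seed storage proteins, 1.38 for other seed proteins, 9.04 for the glyoxylate cycle, 3.85 for seed lipoxygenases and 1.80 for the anthocyanin and flavonol branch, each smaller because the floor replaces low stem counts. In alternatives chosen after seeing the data, genes at 1 CPM in seedling with 0 counts in stem numbered 626 to 644 over the scalings, and 94 to 102 the other way, against 80 and 6 at a minimum of 10 CPM. No paired analysis was possible because each group was 1 library. With 1 library a group, no spread between plants is known, and the stem depth limits low genes most.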

Other observations

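Of the named loci, 6 had 0 counts in all 10 libraries: RBCS1, IFS1, W1, FT2B, FT3B and FT5B. The deposited counts give no information on the expression of these loci.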
